A study of Mus musculus with 2 samples.

Results

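The megakaryocyte and platelet genes Pf4, Ppbp, Itga2b, Itgb3, Gp9, Vwf and Cd9 were followed through single bone marrow cells of mice from a hypobaric chamber and of control mice. They were taken by name as gene columns present in both deposited tables, and are 7 of the 27706 gene columns found in either table. The cells were bone marrow of ICR mice, an outbred stock, aged 7 to 8 weeks, from which lineage-positive cells had been removed on magnetic beads before capture on the BD Rhapsody single-cell platform. The hypoxia mice had lived in an altitude chamber for 13 days at 52.93 kPa, the pressure at 5000 m, with 19.5% oxygen. The control mice were killed when they reached the site of the experiment, so they were not kept in parallel and had no chamber stay, and time, age and handling cannot be told apart from hypoxia. Each group had 1 library, and how many mice it pooled is not stated in the labels. With 1 library per group no test between groups is possible and no p-value is given.

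Megakaryocytes are large, polyploid bone marrow cells that shed platelets, and they arise from blood stem cells, partly along a direct route on which stem cells already carry megakaryocyte transcripts. Platelets store chemokines in alpha granules, bind von Willebrand factor through the GPIb-IX-V complex, and bind fibrinogen through the integrin alphaIIb-beta3. Part of these genes is not restricted to the lineage: the alphaIIb chain marks early blood progenitors and basophil and mast cell precursors, and Cd9 is found on many blood cells.

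Pf4 (platelet factor 4) and Ppbp (pro-platelet basic protein) are alpha-granule chemokines and lie side by side. On GRCm38 with the GENCODE vM21 gene models Ppbp spans chr5:90768518-90770063 and Pf4 chr5:90772435-90773383, both on the plus strand and 2371 bp apart. Itga2b (chr11:102453297-102470122, minus strand) encodes integrin alphaIIb and Itgb3 (chr11:104608000-104670476, plus strand) its partner beta3. Gp9 (chr6:87778072-87779768, plus strand) encodes glycoprotein IX of the GPIb-IX-V receptor, and Vwf (chr6:125546774-125686679, plus strand) the ligand of that receptor. Cd9 (chr6:125460266-125494791, minus strand) encodes a tetraspanin of the platelet surface. All are protein-coding. Cd9 overlaps 2 genes on the other strand, Gm28809 by 3316 bp and Gm26728 by 368 bp, and Itga2b overlaps Gm23563, on its own strand, by 251 bp. The rule by which reads of such overlaps were assigned is not stated in the file headers or labels.

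The 250 bases before the start sites of the neighbours Pf4 and Ppbp and of Gp9 are shown. For these genes RefSeq and GENCODE place the start site at nearly the same base. The windows are from RefSeq on GRCm38.p6, on the strand of the gene, and RefSeq windows were matched for 5 of the 7 genes (Pf4, Ppbp, Itga2b, Gp9 and Cd9). They span chr5:90772185-90772434 for Pf4, chr5:90768268-90768517 for Ppbp and chr6:87777820-87778069 for Gp9. Capitals mark matches to short fixed words chosen for factors that act in megakaryocytes, searched on both strands. GATAA was used for the GATA factors. For the ETS factors, such as Fli1, the word was CGGAAG. For the RUNX factors it was TGTGGT.
Pf4: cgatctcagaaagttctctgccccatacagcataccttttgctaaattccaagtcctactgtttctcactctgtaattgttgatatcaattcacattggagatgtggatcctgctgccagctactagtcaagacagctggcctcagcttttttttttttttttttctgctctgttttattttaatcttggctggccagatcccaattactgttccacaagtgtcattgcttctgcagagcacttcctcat
Ppbp: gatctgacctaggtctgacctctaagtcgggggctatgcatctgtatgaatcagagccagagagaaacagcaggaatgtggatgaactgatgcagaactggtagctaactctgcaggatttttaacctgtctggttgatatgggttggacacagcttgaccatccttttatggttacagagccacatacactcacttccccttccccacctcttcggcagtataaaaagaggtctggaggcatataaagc
Gp9: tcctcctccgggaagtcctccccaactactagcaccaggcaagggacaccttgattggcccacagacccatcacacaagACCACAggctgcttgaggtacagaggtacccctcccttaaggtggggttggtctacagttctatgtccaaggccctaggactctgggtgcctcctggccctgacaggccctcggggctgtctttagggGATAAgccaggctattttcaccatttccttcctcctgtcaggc
The Gp9 window held GATAA 43 bases before the start site and TGTGGT on the other strand, 171 bases before it. None of the 3 words was found in the windows of Pf4, Ppbp, Itga2b and Cd9. The Itga2b window (chr11:102469884-102470133) lies mostly inside the GENCODE gene model given above, and the Cd9 window (chr6:125494761-125495010) partly inside its own. These 2 windows, not shown, are therefore not wholly upstream of those models. Among 32851 RefSeq windows of the same length 22.6% held GATAA, 13.6% CGGAAG and 14.05% TGTGGT on either strand. A match is a description of letters in the window and no evidence of binding. Shorter or other forms of these words were not searched, so a window without a match can still hold a site.

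After filtering 6280 hypoxia and 3914 control cells remained, with median depths of 21345 and 32166 unique molecules (UMIs) per cell, so the hypoxia cells were the shallower. The libraries shared 23 cell barcodes. Cells were placed in 12 gates by how many markers of a list had a UMI, and none of the 7 genes was a marker. The megakaryocyte gate asked for at least 4 of Gp1ba, Gp1bb, Gp5, Gp6, Treml1, Rab27b, Tubb1, F2rl2 and Alox12. The stem gate asked for 3 of the 8 genes Hlf, Mecom, Procr, Mllt3, Fgd5, Ctnnal1, Hoxb5 and Hoxa9. The basophil gate asked for 5 of the 8 genes Prss34, Mcpt8, Cpa3, Fcer1a, Ms4a2, Cd200r3, Hdc and Cyp11a1, which mast cells also use. A cell had to pass exactly 1 gate, and cells passing both the stem and the megakaryocyte gate were kept apart as double-gated. Levels are UMIs summed over a gate scaled to 1000000 UMIs of that gate (CPM), hypoxia first, with exact Poisson 95% intervals that cover counting error only. The platform counts 1 end of each molecule, so CPM values of different genes can be set side by side without regard to length.

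Fewer cells of the hypoxia library were megakaryocyte-gated. They numbered 42 of 6280 hypoxia cells (0.669%, with 0.482 to 0.903 as the 95% Clopper-Pearson bounds). In the control library they numbered 93 of 3914 (2.38%, 1.92 to 2.90), and the hypoxia share was 0.281 times that of the control (0.191 to 0.409). Just below the minimum, 16 hypoxia and 25 control cells had 3 markers, and 5 and 18 cells just reached it with 4. Gated cells had a median of 19024 and 14727 UMIs, so here the hypoxia cells were the deeper. With cells that also passed other gates kept, an alternative chosen after seeing the data, the counts were 62 and 120 cells and the ratio of shares 0.322. Stem-gated cells made up 1.59% (100 cells) and 4.04% (158 cells), double-gated cells numbered 12 and 19, and basophil-gated cells made up 7.91% (497 cells) and 5.37% (210 cells).

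The markers of a gate were not all common in its cells, and each gate also held transcripts of other lineages. Gp5 had a UMI in 39 of 42 and 91 of 93 megakaryocyte-gated cells, Hlf in 91 of 100 and 142 of 158 stem-gated cells, and Cpa3 in 486 of 497 and 171 of 210 basophil-gated cells. These 3 genes are gate markers, so their presence follows from the gating and is no check of it. Tubb1, also a gate marker, had only 30 and 41 UMIs in all megakaryocyte-gated cells together. Of the 8 basophil markers 5 were found in megakaryocyte-gated hypoxia cells and 6 in control cells, summing to 62.5 and 10.8 CPM, with Cd200r3, Hdc and Cyp11a1 at 0 in the hypoxia cells and Fcer1a and Cyp11a1 at 0 in the control cells. The 8 erythroid markers summed to 262 and 194 CPM, with all 8 found in the hypoxia cells and Slc4a1 alone at 0 in the control cells. The globin gene Hba-a1 had a UMI in 22 of 42 and 14 of 93 of the cells, and the basophil protease Prss34 in 15 of 42 and 6 of 93. The 5 endothelial markers, some of which megakaryocytes also use, summed to 409.8 and 294 CPM, with Emcn at 0 in the hypoxia cells. In stem-gated cells the 5 granulocyte progenitor markers, all found, summed to 1317 and 1515 CPM, above the 8 stem markers at 1065 and 955 CPM, so stem markers were not the leading list in this gate. The 8 basophil markers summed to 339 and 182 CPM there, with Fcer1a and Cd200r3 at 0 in the hypoxia cells and Cd200r3 at 0 in the control cells. In basophil-gated cells the 8 basophil markers summed to 70345 and 59513 CPM, the 5 eosinophil markers to 982 and 141 CPM, all found in both libraries, and the 5 monocyte markers to 234 and 29.1 CPM, with Csf1r at 0 in the control cells. The part of these transcripts in the differences below was not tested.

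**Figure D1:**
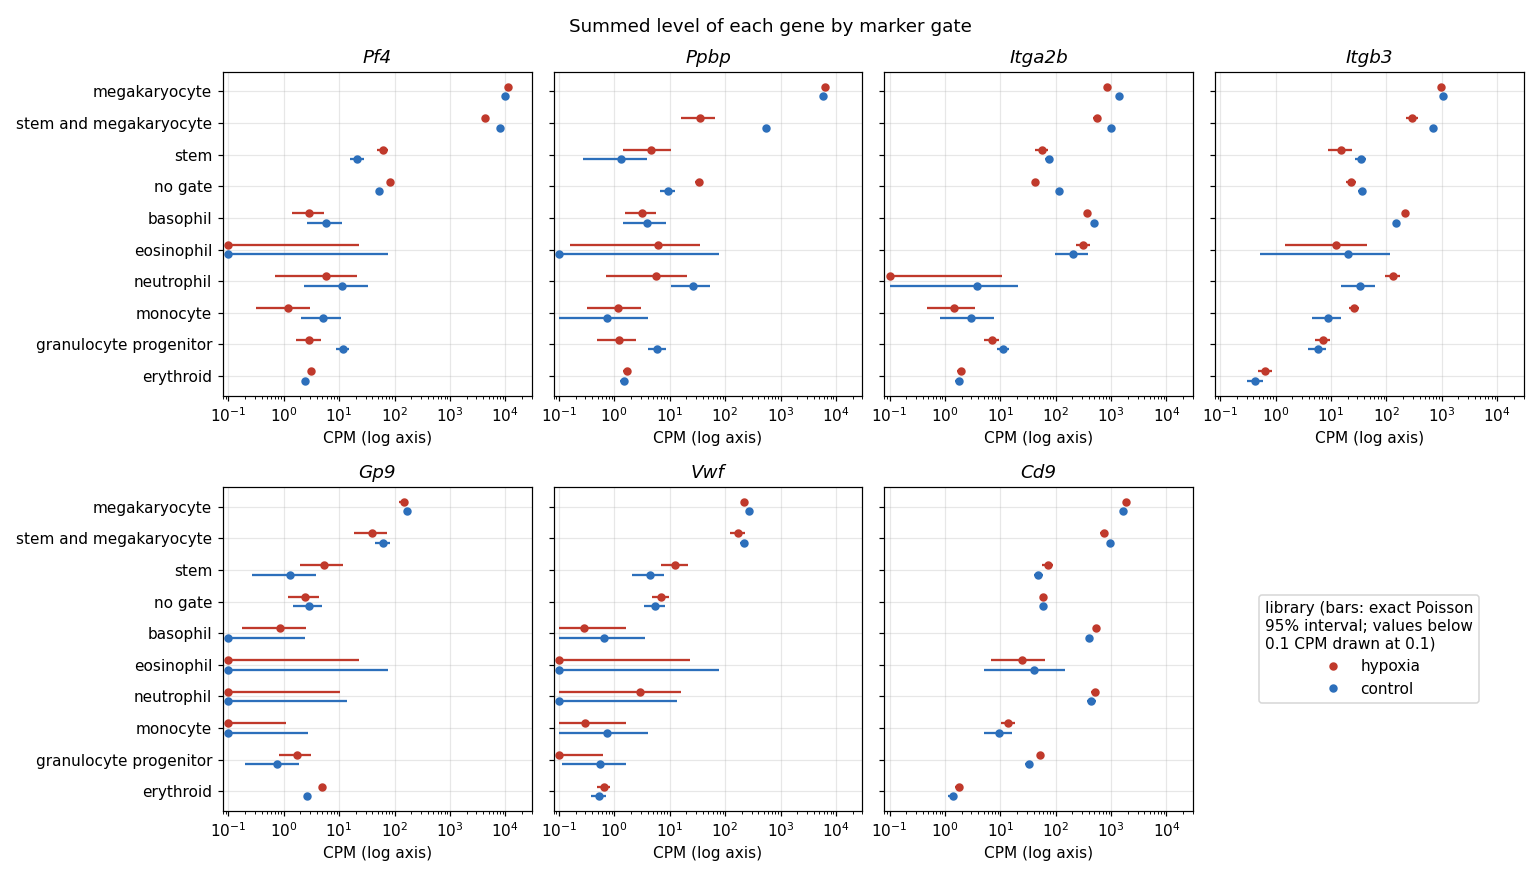
Level of each of the 7 genes (CPM, log axis) in 10 groups of cells, with hypoxia in red and control in blue; points are summed levels, bars are exact Poisson 95% intervals and values below 0.1 CPM are drawn at 0.1. Pf4, Ppbp, Gp9 and Vwf stand highest in megakaryocyte-gated cells and far lower in basophil-gated and erythroid-gated cells, while Itga2b, Itgb3 and Cd9 keep levels above 100 CPM in basophil-gated cells.

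Pf4, which binds heparin and is among the most abundant platelet proteins, was the most abundant of the 7 in megakaryocyte-gated cells. Its level was 11397 CPM (11177 to 11621) in the hypoxia library and 9896 CPM (9757 to 10037) in the control library. It had a UMI in 42 of 42 and 85 of 93 gated cells, and the per-cell level had a median of 8308 CPM (10th to 90th percentile 1380 to 27980) against 5891 CPM (255 to 18278). Pf4 was thus present in nearly every gated cell of both libraries, and the ranges over cells overlapped. In stem-gated cells it was at 61.3 and 21.3 CPM, and in basophil-gated cells at 2.88 and 5.83 CPM, next to 3.11 and 2.43 CPM in erythroid-gated cells, which should lack it.

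Ppbp, the precursor of a neutrophil-attracting chemokine, was the second most abundant gene in megakaryocyte-gated cells but was missing from many of them. Its summed level was 6349 CPM (6185 to 6516) and 5953 CPM (5845 to 6063), and it had a UMI in 34 of 42 and 59 of 93 cells. The median cell stood at 1784 and 522 CPM and the 90th percentile at 49603 and 38143 CPM, so its molecules were spread unevenly over the cells. Single cells contributed 19.6% and 15.3% of the gate's Ppbp UMIs. In double-gated cells Ppbp was at 35.1 and 537 CPM, in stem-gated cells at 4.51 and 1.31 CPM (5 and 3 UMIs) and in basophil-gated cells at 3.17 and 3.89 CPM.

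Ppbp was found almost only in cells that also had Pf4. By presence of a UMI this was all but fixed in the hypoxia library. Pf4 had a UMI there in 42 of 42 cells at full depth and in 31 of the 32 left after the thinning below. The control library, with Pf4 in 85 of 93 cells, left more room for cells with Ppbp alone. At full depth 34 and 58 megakaryocyte-gated cells had both chemokines, 8 and 27 had Pf4 alone, and 0 and 1 had Ppbp alone, the last from 1 UMI in a cell of 2293 UMIs. Each cell was thinned to 3000 UMIs to remove depth, which left 32 hypoxia and 78 control megakaryocyte-gated cells, the 10 and 15 shallower cells being left out. Of these, 17 and 35 had both chemokines, 14 and 32 had Pf4 alone, 0 and 0 had Ppbp alone, and 1 and 11 had neither. Nearly all of the cells left out had Ppbp over 1000 CPM, so thinning removed cells with much Ppbp. The control cell with Ppbp alone was also among those left out, so its absence after thinning was fixed by the depth limit. At a level of 1000 CPM in unthinned cells, 24 of 42 and 42 of 93 cells reached it for Ppbp, 14 and 34 reached it for Pf4 only, 4 and 17 for neither and 0 and 0 for Ppbp only. Cells with Ppbp between 500 and 2000 CPM, near this level, numbered 4 and 9. Cells with much Ppbp were also the shallower ones, with median depths of 5368 and 9338 UMIs against 22163 and 18327 below the level.

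**Figure D2:**
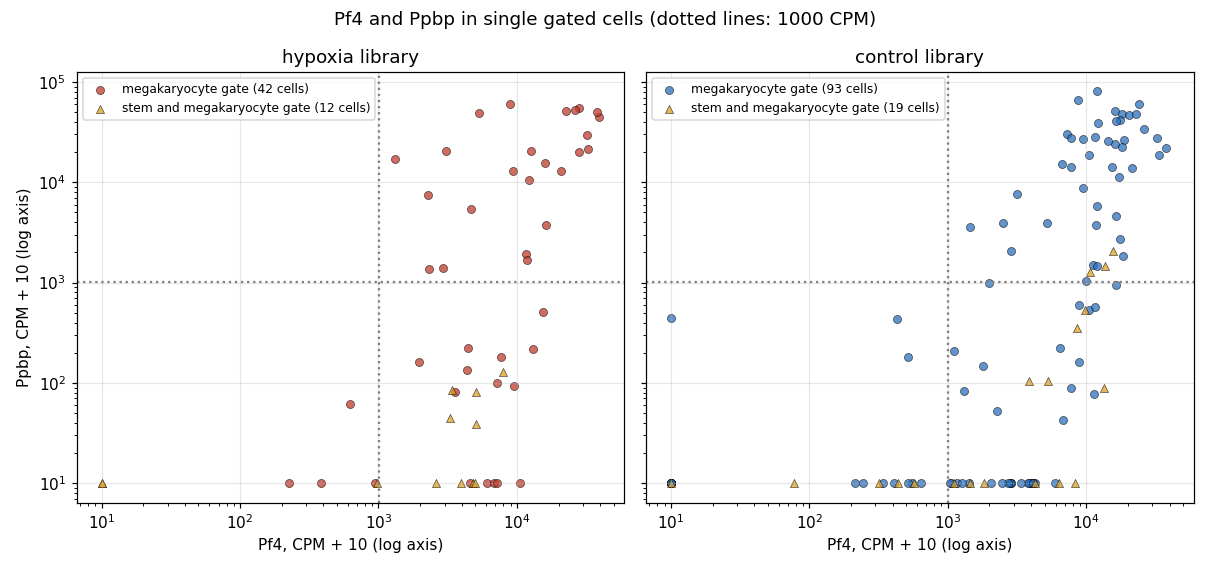
Ppbp against Pf4 in single cells (CPM + 10, both axes log), with circles for megakaryocyte-gated and triangles for double-gated cells, hypoxia on the left and control on the right; dotted lines mark 1000 CPM. The lower right quadrant (Pf4 without Ppbp) is filled in both libraries with 14 and 34 megakaryocyte-gated cells, and the upper left quadrant is empty.

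The other genes differed between cells with and without high Ppbp to unequal degrees. Gp9 was at 248 against 55.0 CPM (Ppbp at or over against under 1000 CPM) in the hypoxia library and at 331 against 49.1 CPM in the control library. Itgb3 was at 1456 against 559 CPM and 1887 against 499 CPM, and Cd9 at 2721 against 1039 CPM and 2915 against 767 CPM. Itga2b was at 1007 against 690.1 CPM and 1937 against 1038 CPM. Vwf was nearly level in the hypoxia library, at 217 against 226 CPM, and was at 324 against 232 CPM in the control library. Gp9 was thus the member with the widest gap, and Vwf the one with the narrowest, in both libraries.

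Itga2b, the alphaIIb chain, was at 839.8 CPM (781 to 902) in hypoxia and 1410.5 CPM (1358 to 1464) in control megakaryocyte-gated cells. The per-cell median was 757 CPM (10th to 90th percentile 321 to 2040.5) against 1201 CPM (342 to 5157), and the gene had a UMI in 40 of 42 and 93 of 93 cells. The lower ends of these ranges lay close together while the upper ends were far apart. Unlike the chemokines, Itga2b was also high in basophil-gated cells, at 360.1 CPM (340.4 to 381) and 488 CPM (453 to 524), with a UMI in 424 of 497 and 186 of 210 cells. It was at 316 and 206 CPM in eosinophil-gated cells, of which there were 37 and 7, at 55.9 and 75.3 CPM in stem-gated cells, and at 1.96 and 1.83 CPM in erythroid-gated cells. Basophil-gated cells held 36.4% of all Itga2b UMIs of kept hypoxia cells and 13.1% of those of control cells, against 21.9% and 47.8% in megakaryocyte-gated cells.

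Itgb3, the beta3 chain, which pairs with alphaIIb and also with the alphaV chain, was at 983 CPM (919 to 1050) and 1075 CPM (1030 to 1122) in megakaryocyte-gated cells. It was at 214 CPM (199 to 230) and 150 CPM (131 to 170) in basophil-gated cells and at 15.3 and 34.8 CPM in stem-gated cells. Neutrophil-gated cells had 132 CPM (96.4 to 176) and 33.5 CPM (15.3 to 63.6), from 46 and 9 UMIs, and the alphaIIb chain had 0 and 1 UMIs there. Both chains of the platelet integrin were therefore found in megakaryocyte-gated and basophil-gated cells, and beta3 with at most 1 alphaIIb UMI in neutrophil-gated cells.

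Gp9, the small subunit needed to bring the von Willebrand factor receptor to the surface, was the lowest of the 7 in megakaryocyte-gated cells. It was at 146 CPM (122 to 174) and 166 CPM (149 to 185), with a UMI in 28 of 42 and 55 of 93 cells. In basophil-gated cells it had 3 and 0 UMIs, where 0 UMIs of 1544340 allow a level of up to 1.94 CPM, as 3 counts of the total. It was at 5.41 and 1.31 CPM (6 and 3 UMIs) in stem-gated cells.

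In erythroid-gated cells Gp9 was at or above the level of Pf4, whereas in megakaryocyte-gated cells it was far below. Gp9 was at 4.82 CPM (4.37 to 5.31) and 2.66 CPM (2.32 to 3.03) there, beside Pf4 at 3.11 CPM (2.75 to 3.50) and 2.43 CPM (2.11 to 2.79), so the intervals overlapped in the control library. The Gp9 values came from 414 and 221 UMIs, in 346 of 3164 and 174 of 2054 cells. Per Pf4 UMI, erythroid-gated cells had 1.55 and 1.09 Gp9 UMIs, and megakaryocyte-gated cells 0.0128 and 0.0168. Vwf had 0.210 and 0.218 against 0.0195 and 0.0273, Itga2b 0.629 and 0.752 against 0.0737 and 0.143, Itgb3 0.210 and 0.178 against 0.0862 and 0.109, and Cd9 0.584 and 0.569 against 0.161 and 0.168. Ppbp alone did not differ in this way: it had 0.551 and 0.619 UMIs per Pf4 UMI in erythroid-gated cells and 0.557 and 0.602 in megakaryocyte-gated cells. Ppbp and Pf4 thus kept their ratio in a gate that should lack both, while the other 5 were higher relative to Pf4, Gp9 by the widest margin. The part of free RNA, and of reads assigned to Gp9 that came from elsewhere, was not tested. Erythroid-gated cells, which are many and deep, held 61.7% of all Gp9 UMIs of kept hypoxia cells and 35.5% of those of control cells. The same cells held 1.75% and 0.753% of the Pf4 UMIs.

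Vwf, the carrier of platelet adhesion, was at 222 CPM (192 to 255) and 270.3 CPM (248 to 294) in megakaryocyte-gated cells, with a UMI in 32 of 42 and 73 of 93 cells. In double-gated cells it stood at 168 and 217 CPM, and in stem-gated cells at 12.6 CPM (6.90 to 21.2, 14 UMIs) and 4.35 CPM (2.09 to 8.01, 10 UMIs). It had 1 and 1 UMIs in basophil-gated cells and was at 0.652 and 0.529 CPM in erythroid-gated cells. Endothelial cells also make Vwf, but the endothelial gate held 0 hypoxia and 7 control cells, with no Vwf UMI among 30077, which allows up to 99.7 CPM as 3 counts of the total. The part of endothelial RNA in the Vwf values was not tested.

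Cd9 was at 1834 CPM (1746 to 1925) and 1658 CPM (1601 to 1716) in megakaryocyte-gated cells and was the most widely spread of the 7. Basophil-gated cells had 529 CPM (505 to 553) and 393 CPM (362 to 426), and neutrophil-gated cells 509.7 CPM (438 to 590.3) and 439 CPM (364 to 526). The intervals of basophil-gated and neutrophil-gated cells overlapped within each library, so the order of these gates is not resolved. Stem-gated cells had 72.1 and 48.3 CPM and granulocyte progenitor-gated cells 52.0 and 33.1 CPM. Among gates with at least 20 cells in both libraries, erythroid-gated cells were lowest, at 1.82 and 1.38 CPM.

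A few stem-gated cells carried most of the stem gate's Pf4, but not of its Itga2b and Cd9. Vwf had a UMI in 8 of 100 and 6 of 158 stem-gated cells, and in these Pf4 was at 662 and 573 CPM against 17.4 and 6.26 CPM in the rest. Of the 68 and 49 Pf4 UMIs of the gate, 50 and 35 came from these cells, and within them 3 and 3 cells had any Pf4. The Vwf-positive cells held 18 of 62 and 29 of 173 Itga2b UMIs and 20 of 80 and 10 of 111 Cd9 UMIs. Itga2b was at 238 and 475 CPM in Vwf-positive and at 42.6 and 64.4 CPM in Vwf-negative stem-gated cells. The stem marker Hlf was at 648 and 344 CPM in the former and 593 and 505 CPM in the latter. Vwf-positive cells were slightly shallower, with median depths of 7634 and 9881 UMIs against 9950 and 14343.

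The order in which the genes appeared was read along the number of megakaryocyte gate markers found, in cells of the stem, double and megakaryocyte gates and of no gate, each thinned to 3000 UMIs. This is an order along marker number in cells taken at 1 time, not a time course. Cells under 3000 UMIs were left out, and nearly all such megakaryocyte-gated cells had Ppbp over 1000 CPM. The bins of 0, 1, 2, 3 or 4, and 5 or more markers held 467, 46, 23, 17 and 13 hypoxia cells and 410, 92, 33, 42 and 29 control cells, so the last 2 hypoxia bins hold under 20 cells. Levels are given as a percent of that at 5 or more markers.

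By level, Vwf had the highest percentage at 2 markers in both libraries, and Ppbp and Itgb3 the lowest in the hypoxia library and Gp9 and Ppbp in the control library. At 2 markers Vwf had reached 42.4% and 29.3% of its top level, but from only 9 and 14 UMIs in 7 of 23 and 10 of 33 cells. Pf4 had reached 24.4% and 17.2%, and had a UMI in 17 of 23 and 21 of 33 cells. Ppbp had reached 0.270% and 2.59%, with a UMI in 3 of 23 and 3 of 33 cells. At 3 or 4 markers Ppbp was still at 7.20% and 13.2%, while Pf4 was at 49.7% and 45.3%, and the share of cells with a Ppbp UMI went from 5 of 17 and 11 of 42 to 11 of 13 and 25 of 29 at 5 or more markers.

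The integrin chains differed in the share of cells that had them at 2 markers. Itga2b had a UMI in 17 of 23 and 25 of 33 cells at 2 markers, and its level was at 34.1% and 14.96% of the top. Itgb3 was at 6.85% and 15.5% at 2 markers, with a UMI in 8 of 23 and 16 of 33 cells. By level the order of the chains differed between the libraries, while by share of cells, which also depends on how abundant a gene is, Itga2b was ahead in both. Gp9 was at 9.42% and 2.31% at 2 markers from 2 and 1 UMIs, and its 0 of 17 hypoxia cells at 3 or 4 markers shows how few molecules this order rests on. Cd9 was at 17.8% and 9.09%.

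**Figure D3:**
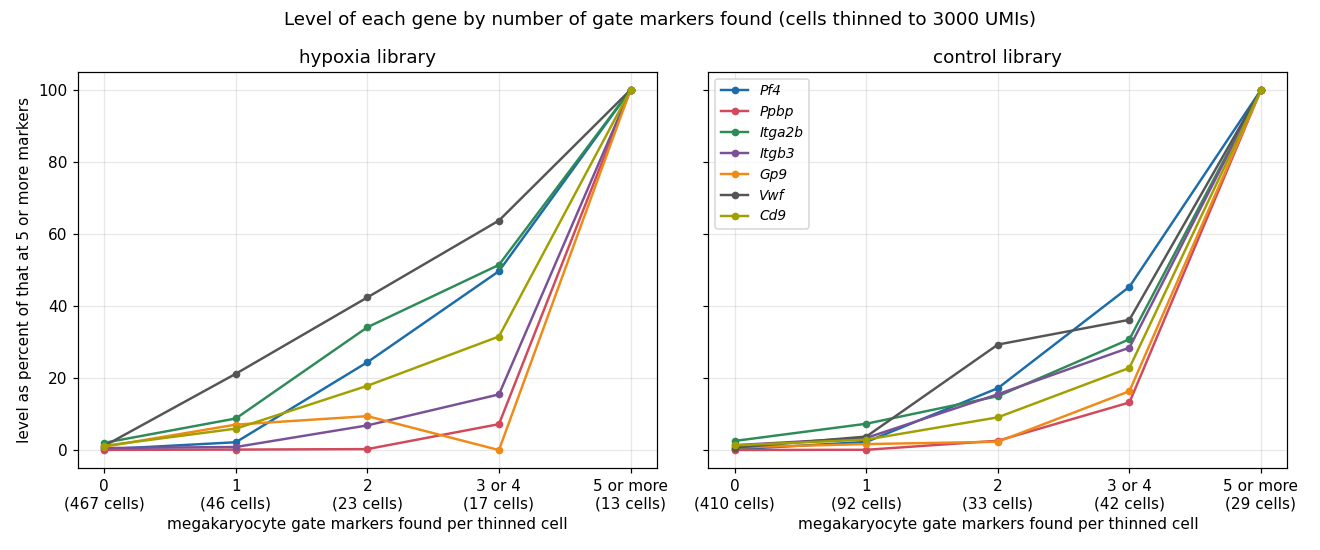
Level of each gene in cells thinned to 3000 UMIs, as a percent of its level in cells with 5 or more megakaryocyte gate markers (vertical axis), by number of markers found (horizontal axis, cells per bin in brackets), hypoxia on the left and control on the right. Vwf is the highest line at 2 markers in both panels (42.4% and 29.3%) and Ppbp is at 0.270% and 2.59% there; the 2 right-hand hypoxia bins hold 17 and 13 cells.

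A second reading, the stem-gate level as a percent of the megakaryocyte-gate level, put Ppbp last in both libraries. At 2 markers Ppbp had been last in the hypoxia library only, and in the control library Gp9 was below it (2.31% against 2.59%). In the second reading Itga2b had the highest value in both libraries, 6.65% (5.05 to 8.63) and 5.34% (4.55 to 6.23). Cd9 was at 3.93% and 2.92%, Itgb3 at 1.56% and 3.24%, Vwf at 5.68% (3.05 to 9.75) and 1.61% (0.768 to 2.99), and Gp9 at 3.70% (1.33 to 8.26) and 0.786% (0.161 to 2.32). The intervals of Itga2b, Vwf and Gp9 overlapped in the hypoxia library, so their order there is not resolved. Pf4 was at 0.538% (0.417 to 0.682) and 0.216% (0.159 to 0.285) and Ppbp at 0.0710% (0.0230 to 0.166) and 0.0219% (0.00452 to 0.0641). The basophil-gate levels of Pf4 and Ppbp, 0.0253% and 0.0589% and 0.0499% and 0.0653% of the megakaryocyte level, mark the background of such a percentage. The summed Pf4 of stem-gated cells was above it in both libraries, and Ppbp was not separated from it. Most of that Pf4 came from the few Vwf-positive cells. In Vwf-negative stem-gated cells Pf4 was at 17.4 and 6.26 CPM, next to 2.88 and 5.83 CPM in basophil-gated cells. The 2 libraries ordered 17 of the 21 pairs of genes alike.

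Double-gated cells, with stem and megakaryocyte markers, stood between the gates for most of the genes. Vwf was at 75.4% and 80.4% of its megakaryocyte-gate level and Itga2b at 67.3% and 70.6%. Pf4 was at 37.2% and 79.9%, Itgb3 at 29.8% and 63.7%, Cd9 at 40.0% and 58.3% and Gp9 at 26.7% and 36.9%. Ppbp was lowest, at 0.553% and 9.01%. Every one of the 7 percentages was lower in the 12 hypoxia cells than in the 19 control cells; the intervals overlapped for Vwf, Itga2b and Gp9, and the hypoxia cells were also shallower (a median of 21341 against 38280 UMIs).

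Hypoxia was set against control within each gate for genes that had 50 or more UMIs with both libraries added. A gene is called here when its log2 ratio of hypoxia over control, taken after adding 10 CPM on both sides, passes 1.5-fold; this ratio understates differences of low genes. The ratios printed with intervals are of the CPM values themselves.

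Of the 7 genes in megakaryocyte-gated cells, 1 was called lower, Itga2b, and 0 higher, where 5.52% of the 6890 genes tested were called lower and 3.73% higher. The Itga2b ratio was 0.595 (0.549 to 0.646; log2 -0.74). Those of the other genes were 1.15 for Pf4, 1.07 for Ppbp, 0.914 for Itgb3, 0.880 (0.713 to 1.08) for Gp9, 0.822 for Vwf and 1.11 for Cd9. The median log2 ratio of the 7 was -0.13 and that of all genes tested -0.01. Itga2b alone of the 7 passed 1.5-fold. Of 11 alternative settings, the direction held in 11 for Itga2b and Vwf, 10 for Gp9, 9 for Pf4, 9 for Ppbp, 7 for Cd9 and 6 for Itgb3. Some of these settings could not turn it: keeping doublets left the gated cells unchanged, and changing the added CPM leaves the sign as it is.

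The Itga2b difference was present at both marker numbers and both Ppbp levels. With 4 to 6 markers it was at 668 CPM in 21 hypoxia cells and 1002 CPM in 55 control cells, and with 7 to 9 markers at 930.5 CPM in 21 and 1663 CPM in 38 cells, ratios of 0.667 (0.569 to 0.779) and 0.560 (0.508 to 0.615). In cells with Ppbp at or over 1000 CPM it was at 1007 and 1937 CPM, and in the rest at 690.1 and 1038 CPM. The ratio of summed Pf4 was 1.74 (1.65 to 1.85) with 4 to 6 markers and 1.02 (0.992 to 1.05) with 7 to 9 markers. These intervals leave out variation between cells. With 4 to 6 markers single hypoxia cells gave 453 and 464 of the 2061 Pf4 UMIs, and a single control cell 677 of 2842. A difference between the subsets was therefore not tested. Itga2b was also lower in the hypoxia library in double-gated cells (565 and 996 CPM), in basophil-gated cells, in stem-gated cells and in cells of no gate (42.5 and 114 CPM), and higher in the few eosinophil-gated cells. In the 8 hypoxia and 8 control cells that passed the megakaryocyte gate and others besides the double gate, it was at 635 and 587 CPM. The part of single cells in these 2 levels was not tested. In the stem gate the direction turned with 1 marker more asked for (log2 0.95).

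In stem-gated cells 4 of the 7 genes had 50 UMIs, and 1 was called higher and 1 lower, where 4.45% of 8245 genes were called higher and 3.40% lower. Pf4 was at 61.3 and 21.3 CPM, a ratio of 2.87 (1.96 to 4.24; log2 1.19). That value rests on few cells: Pf4 had a UMI in 11 of 100 and 14 of 158 cells, and 1 cell of each library gave 44.1% and 34.7% of the UMIs. In cells thinned to 3000 UMIs the log2 ratio turned to -0.20, and with cells that also passed other gates kept, to -0.95. Itgb3, with 17 and 80 UMIs, was at 15.3 and 34.8 CPM, a ratio of 0.440 (0.244 to 0.749; log2 -0.82), and had a UMI in 9 of 100 and 43 of 158 cells. Itga2b had a ratio of 0.742 (0.546 to 0.997) and Cd9 of 1.49 (1.10 to 2.01). Ppbp, Gp9 and Vwf, with 8, 9 and 24 UMIs in all, were too few for the comparison.

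In basophil-gated cells 3 of the 7 genes had 50 UMIs and 0 were called, where 4.37% of 8055 genes were called higher and 4.08% lower. Itga2b had a ratio of 0.739 (0.674 to 0.810; log2 -0.43), its partner Itgb3 one of 1.43 (1.24 to 1.67; log2 0.49) and Cd9 one of 1.34 (1.23 to 1.48; log2 0.42). The 2 integrin chains thus lay on opposite sides of 1 in these cells. Basophil-gated cells were split at the median Cpa3 level over both libraries, 3269.5 CPM; Cpa3 encodes a protease of mast cells and basophil precursors. Itgb3 was at 157 CPM above it and at 354 CPM at or below it in the hypoxia library, and at 75.3 and 229 CPM in the control library. Cd9 followed the same order, at 420.2 and 793 CPM and at 322 and 468 CPM. Itga2b varied less, at 339 and 411 CPM and at 469 and 507 CPM. The mix of the classes differed, with 281 of 497 hypoxia and 72 of 210 control cells above the split. Within the classes the Itgb3 ratio was 2.09 (1.59 to 2.79) above and 1.55 (1.29 to 1.87) at or below the split, both above the pooled 1.43. That of Cd9 was 1.30 (1.136 to 1.4999) and 1.69 (1.49 to 1.92), and that of Itga2b 0.723 (0.640 to 0.819) and 0.810 (0.703 to 0.933). Itgb3 thus passed 1.5-fold in both classes and Cd9 at or below the split. The share of all genes past 1.5-fold was not computed within the classes. The cells above the split were the deeper, with median depths of 8575 and 10986 UMIs against 3804 and 3966.

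**Figure D4:**
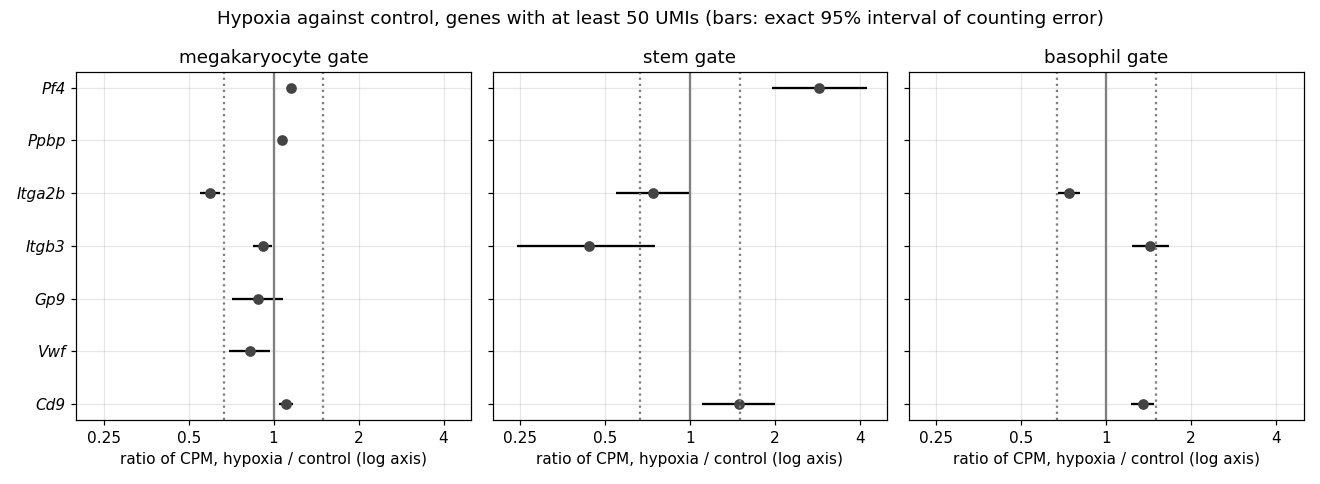
Ratio of CPM in the hypoxia library over the control library (log axis) for genes with at least 50 UMIs in the megakaryocyte, stem and basophil gates; bars are exact 95% intervals of counting error, the solid line marks equality and dotted lines 1.5-fold in either direction. Itga2b lies left of equality in all 3 gates (0.595, 0.742 and 0.739), while Itgb3 lies left of it in 2 gates and right of it in basophil-gated cells (1.43).

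Of 44 other genes of megakaryocytes and platelets, 43 had 50 UMIs in megakaryocyte-gated cells, and 3 were called higher and 5 lower, where 3.73% and 5.52% of all genes tested were. Their median log2 ratio was -0.06. The 3 called higher were Tgfb1, the cytokine TGF-beta1, at 103 and 48.7 CPM (log2 0.94), the growth factor gene Pdgfa at 54.7 and 24.6 CPM (log2 0.90) and the matricellular protein gene Thbs1 at 762 and 470.3 CPM (log2 0.68). The 5 called lower were Nbeal2, needed to form alpha granules, at 31.3 and 57.4 CPM (log2 -0.71), Ptgs1, the cyclooxygenase that aspirin blocks in platelets, at 159 and 263 CPM (log2 -0.69), the ADP receptor gene P2ry1 (log2 -0.67), the coagulation factor gene F5 (log2 -0.61) and the ETS factor gene Fli1 at 370 and 562 CPM (log2 -0.59). The list of granule and secreted proteins thus had 3 called higher and 1 lower, F5, of 9 tested. Among the regulators, Gata1 was at 429 and 311 CPM (log2 0.45) and Gata2 at 248 and 306 CPM (log2 -0.29). In stem-gated cells 3 of 32 tested genes were called higher and 0 lower, beside 4.45% and 3.40% of all genes. In basophil-gated cells 3 were called higher and 2 lower of 29, beside 4.37% and 4.08% of all genes.

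Across gates Pf4, Ppbp, Gp9 and Vwf varied together more closely than the other 3 genes did with them or with each other. Over 18 points, the 10 hypoxia and 8 control gates with at least 20 cells, Pearson's r of log2(CPM + 10) was between 0.965 and 0.986 among Pf4, Ppbp, Gp9 and Vwf. It was 0.861 between Itgb3 and Cd9, 0.706 between the partners Itga2b and Itgb3, and 0.658 between Itga2b and Cd9. Between these 3 and the first 4 it lay between 0.604 (Gp9 and Cd9) and 0.769 (Ppbp and Itgb3). These are descriptions, since the points share 2 libraries and most of them lie near 0 CPM for the first 4. Of 14059 genes, those most like Pf4 were Gucy1b1 (0.995), Trpc6 (0.993) and Tmie (0.992), and those most like Itga2b were P2rx1 (0.936), Prkca (0.917) and BC016579 (0.915). Gp1bb, Gp6 and Ly6g6f were most like Ppbp, and the first 2 of them are markers of the gate. Gp9 was followed by Lim2, Ank3 and Myl9, Vwf by Gm42517, Kalrn and Slc35d3, Itgb3 by Sntb1, Vps37b and Rab11a, and Cd9 by Ptgir, Serpinb2 and Rab11a.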

How the data were processed

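The deposited values are UMI counts per cell and gene, corrected for molecular index errors and not normalized. Per the file headers, they were made with version 1.7.1 of the BD WTA Rhapsody pipeline and the GENCODE vM19 annotation of GRCm38; the submitters' processing notes also name Bowtie2. The cell calling step is not stated in these sources. The tables held 6406 hypoxia and 3956 control cells (137504361 and 121415081 UMIs in all). Cells with at least 500 UMIs, 200 genes and under 20% mitochondrial UMIs were kept, and Scrublet in scanpy 1.11.5 removed 112 and 36 doublets.

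The genes, lists and comparisons were chosen with earlier results of these data known. Gate minimums and the rule that a cell pass exactly 1 gate were set after the marker counts per cell were seen. UMIs were summed per gate and scaled to CPM, with exact Poisson, Clopper-Pearson and conditional ratio intervals (scipy 1.17.1). Only the ratio intervals and the fold rule were tried on simulated data. Those data were Poisson counts drawn from the gate sums, without variation between cells. UMI intervals treat molecules as independent and leave out variation between cells. Thinning drew 3000 UMIs per cell. Named genes were the 7, the 3 most like each over gates, the other pathway genes at the ends of the log2 ratios, and Gata1, Gata2 and Fli1 (a further gene of this rule is not reported here); Thbs1, P2ry1 and F5 were added after their values were seen. Alternatives changed the gate, doublets, cell filter, depth, added CPM, averaging, single top cells, scaling (TMM in edgeR 4.0.16) and the classing of cells (Leiden clusters, leidenalg 0.10.2, resolution 1, made without the 7 genes).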

Additional observations from a re-analysis of the deposited data

How the results depend on the processing

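Of 154 recomputed log2 ratios of the 7 genes, 135 kept their direction and 114 stayed within the counting interval. Some settings could hardly turn a direction, so these counts overstate how far it was tried. Keeping doublets left the same 42 and 93 megakaryocyte-gated cells, and changing the added CPM cannot turn a sign. Itga2b was lower in hypoxia megakaryocyte-gated cells under all 11 alternatives, with log2 between -1.10 and -0.69. Pf4 in stem-gated cells reversed from 1.19 to -0.20 with cells thinned and to -0.95 with cells that also pass other gates kept. That last setting, chosen after seeing the data, also gave 1 called gene in basophil-gated cells (Pf4, higher) and 3 in stem-gated cells (Pf4, Itga2b and Itgb3, lower), and an upward Ppbp log2 ratio of 0.53 in megakaryocyte-gated cells. A single cell held 86.8% of the Ppbp UMIs of hypoxia cells that passed several gates. With Leiden clusters in place of gates, the megakaryocyte class shrank to 1 cluster of 10 hypoxia and 33 control cells, with a ratio of shares of 0.189 (0.0830 to 0.392). There 6 genes were called, all lower (Pf4, Ppbp, Itga2b, Gp9, Vwf and Cd9), with 0 in the stem class and 1 in the basophil class (Pf4, lower); the cause was not tested, and 93 megakaryocyte-gated cells lay in another cluster that held no clear majority of a gate. The count in the stem gate hid a change of genes: with 1 gate marker fewer Itga2b and Itgb3 were lower, and with 1 more Itga2b and Cd9 were higher. The share of all genes called was computed for the main gates only. The counts of called genes under the alternatives therefore have no such share beside them and are not read as particular to the 7 genes. By stem-gate level relative to the megakaryocyte gate, Ppbp was last in both libraries in all 8 orders computed. TMM moved all genes by at most 0.03 in log2. No paired analysis was possible because each group had 1 library. In stem-gated cells Ppbp, Gp9 and Vwf had too few UMIs (8, 9 and 24) for a comparison.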
